A study of Mus musculus with 7 samples.

Results

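Selenbp1 and Selenbp2 encode the selenium-binding proteins of the mouse. The probe sets of both genes read lower in the livers of Trpm6-deficient mice than in those of control littermates. The genes were followed through every probe set of the array whose annotated symbol is Selenbp1 or Selenbp2. This gave 2 of 35556 probe sets, 1 for each of the 2 genes, out of 19938 genes named by a probe set of their own, and 0 probe sets carry both symbols. Selenbp2 was chosen because it was already known to be lower in these livers, and Selenbp1 was chosen with it, so their levels and changes are given as a description with no test.

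The data are RNA levels in the left liver lobe of 7 male littermates on a C57BL/6 background, measured on a whole-transcript Affymetrix array with 1 array per mouse. The 4 control mice (Trpm6 fl/+) carried 1 floxed and 1 wild-type Trpm6 allele and no Cre, of which 2 were 12 and 2 were 13 weeks old. The 3 Trpm6-deficient mice (Trpm6 Δ17/Δ17;Sox2-Cre) lacked exon 17 of both alleles, of which 1 was 12 and 2 were 13 weeks old. Trpm6 encodes a magnesium channel. In the study's cross the father passed on an already deleted allele together with Sox2-Cre, and the mother a floxed allele. Inherited in this way, Sox2-Cre deletes the floxed allele in the epiblast and so in all tissues of the mouse, but not in extraembryonic tissues. The deletion is therefore not specific to the liver. The labels give only control and mutant, and the alleles are taken from the study's methods. Values are log2 expression values, so a change of -1 is a level of 50% of control.

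Selenium-binding proteins hold selenium but are not selenoproteins: they contain no selenocysteine, the selenium amino acid that is inserted at a recoded stop codon. SELENBP1 is a methanethiol oxidase, which turns methanethiol, a volatile product of methionine, into hydrogen sulfide, hydrogen peroxide and formaldehyde. Selenbp2 is a close copy of Selenbp1 and was found in mouse liver as a protein that binds the painkiller acetaminophen. The methionine cycle, transsulfuration and the mitochondrial oxidation of sulfide are the liver pathways next to this reaction.

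The genes lie on the same strand of chromosome 3, with their annotated starts 240 kb apart. Their start regions are shown because the bases around both starts are nearly the same, while the probe sets of the genes changed by different amounts. Each run below covers 250 bases before and 50 bases after the annotated start (RefSeq, GRCm38.p6), on the plus strand and 5′ to 3′. Capitals mark bases that have no identical partner in an alignment of the pair.
Selenbp2, chr3:94693323-94693622: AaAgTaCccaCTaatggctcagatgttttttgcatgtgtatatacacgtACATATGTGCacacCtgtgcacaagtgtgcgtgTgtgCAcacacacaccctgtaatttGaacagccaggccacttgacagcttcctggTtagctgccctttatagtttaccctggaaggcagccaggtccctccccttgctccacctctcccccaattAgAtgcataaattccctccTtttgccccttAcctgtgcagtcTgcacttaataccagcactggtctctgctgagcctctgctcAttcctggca
Selenbp1, chr3:94932833-94933132: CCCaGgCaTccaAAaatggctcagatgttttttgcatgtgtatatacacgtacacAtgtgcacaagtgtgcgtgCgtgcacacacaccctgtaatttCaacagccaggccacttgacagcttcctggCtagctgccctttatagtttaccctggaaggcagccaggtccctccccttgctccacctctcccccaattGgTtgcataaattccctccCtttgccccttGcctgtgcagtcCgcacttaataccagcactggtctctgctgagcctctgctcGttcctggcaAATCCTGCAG
All 300 Selenbp2 bases aligned with 288 Selenbp1 bases. Of the 300 alignment columns 272 (90.7%) were identical, 16 held a different base and 12 held a Selenbp2 base with no partner. The longest identical run was 69 bases.

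**Figure D1:**
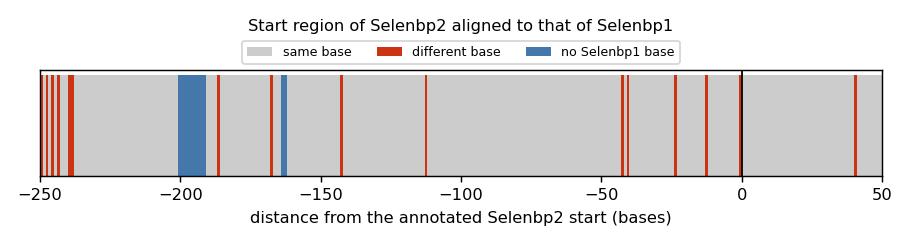
Alignment of the Selenbp2 start region with that of Selenbp1, by distance in bases from the annotated Selenbp2 start (vertical line). Grey columns are identical (272 of 300), red columns hold a different base (16) and blue columns hold a Selenbp2 base with no Selenbp1 partner (12).

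The pair was searched on both strands for 7 short motifs. TATAAA, the sequence of the TATA box, was found 1 time in each window, on the minus strand only. On the plus strand it reads TTTATA, beginning 103 bases before the Selenbp2 start and 113 before the Selenbp1 start. Both genes are on the plus strand, so the match runs opposite to them and is not shown to be their TATA box. Other TATA-like sequences were not looked for. It lies in a stretch that is the same in both genes, and 13.6% of the 32851 start windows in the RefSeq table hold it. There were 0 matches in either window for TTCNNNGAA (STAT factors, 8.3% of all windows), GTTAAT (HNF1 core, 7.1%), CAAAGTCCA (HNF4, 0.475%), AGGTCA (nuclear receptor element, 16.3%), TGACNNNGC (core of the antioxidant response element, 12.4%) and CACGTG (E-box of the clock factors, 7.15%). No motif in the search therefore separates the 2 windows. Only exact matches to the 7 sequences were counted, so 0 matches does not show that a binding site is absent. Because the genes are close copies, probes designed for either transcript could also read the other. Which bases the probes match was not examined. How much of the change at the Selenbp1 probe set comes from Selenbp2 RNA, or the reverse, was therefore not tested.

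Selenbp2, the acetaminophen-binding copy, had log2 values of 12.76, 12.74, 12.87 and 12.69 in control livers 1 to 4. In Trpm6-deficient livers 1 to 3 it was at 11.04, 11.05 and 10.76. All 3 Trpm6-deficient livers lay below all 4 controls, and the gap between the groups, 1.64, was wider than the range of either group (0.18 in control and 0.29 in Trpm6-deficient livers). The means were 12.77 ± 0.08 (SD, n = 4) and 10.95 ± 0.16 (SD, n = 3), which is -1.82 on the log2 scale (SE 0.09 from the limma fit) and leaves 28.4% of the control level.

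Selenbp1, the methanethiol oxidase gene, was at 11.94, 11.85, 11.82 and 11.69 in control livers 1 to 4. In Trpm6-deficient livers 1 to 3 it was at 11.37, 11.14 and 10.98. Here too the groups did not overlap, but the gap between them was 0.32, close to the range within the control (0.25) and Trpm6-deficient (0.39) groups. The means were 11.83 ± 0.10 (SD, n = 4) and 11.16 ± 0.20 (SD, n = 3), which is -0.66 on the log2 scale (SE 0.11) and leaves 63.2% of the control level.

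**Figure D2:**
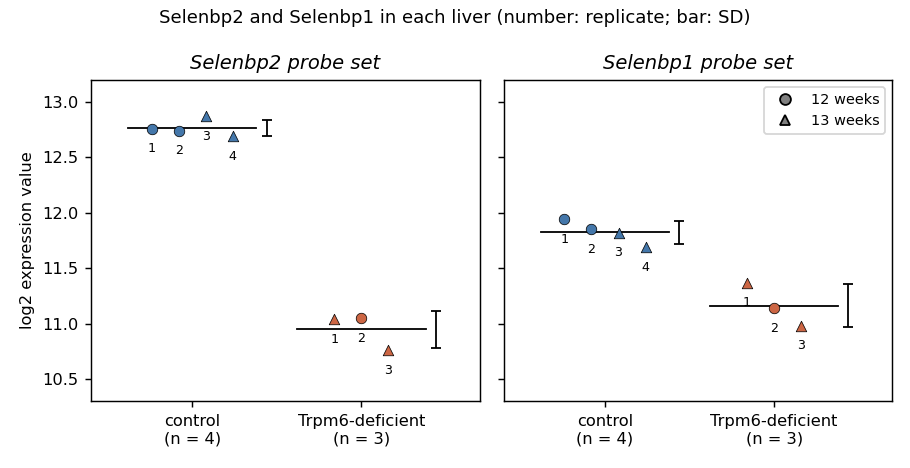
Log2 expression values of the Selenbp2 and Selenbp1 probe sets, with a point for every liver (4 control, 3 Trpm6-deficient; circles, 12 weeks; triangles, 13 weeks), a line at each group mean and a bar for the SD. The groups are apart by 1.64 for Selenbp2 and 0.32 for Selenbp1, and Trpm6-deficient 3 is lowest for both.

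Trpm6-deficient 3 had the lowest value of both genes, and Trpm6-deficient 1 and 2 were nearly level for Selenbp2. Relative to each gene's own control mean, Selenbp2 minus Selenbp1 was -1.27, -1.03 and -1.16 log2 units in Trpm6-deficient livers 1, 2 and 3. In the control livers this difference lay between -0.12 and 0.11. Levels of the pair cannot be set against each other, since each probe set has its own brightness. Both were bright transcripts: Selenbp2 lay above 98.5% to 98.8% of probe sets in control arrays and above 93.1% to 94.1% in Trpm6-deficient arrays. Selenbp1 lay above 96.4% to 96.9% of probe sets in control arrays and 94.0% to 95.1% in Trpm6-deficient arrays. Neither difference therefore lies at the dim end of the array. In whole liver, fewer cells that express a gene and less RNA per cell cannot be told apart.

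Among the 21789 probe sets with 1 gene symbol, the Selenbp2 change was the 16th most negative and the Selenbp1 change the 134th. A probe set was called where its Benjamini-Hochberg adjusted p from limma reached the study's threshold of 0.1, and here a nominal difference is an unadjusted p of at most 0.05. There were 46 calls (0.129% of all probe sets), 27 higher (0.0759%) and 19 lower (0.0534%), and 1 of the 2 member probe sets, that of Selenbp2, is among the 19. Nominal differences made up 6.87% of all probe sets, 3.85% higher and 3.03% lower. Trpm6-deficient livers lay wholly below control livers for 2.38% of all probe sets, and both members are among these. The genes were chosen on this contrast, so these counts describe where they stand and support nothing further.

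**Figure D3:**
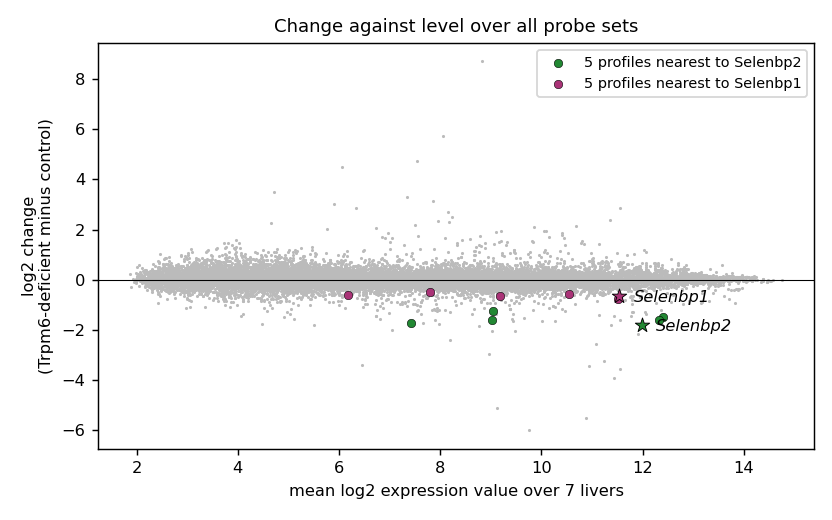
Log2 change (Trpm6-deficient minus control) against the mean log2 expression value for all 35556 probe sets (grey), with the members as stars and the 5 genes of most similar profile to each as dots. Selenbp2 (-1.82) and Selenbp1 (-0.66) lie at the bright end of the array, below the main body of points.

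Both genes were lower at both ages. In the 12-week-old mice, with 2 control and 1 Trpm6-deficient livers, Selenbp2 differed by -1.70 and Selenbp1 by -0.76. In the 13-week-old mice, with 2 livers of each group, the differences were -1.88 and -0.58. The 1 Trpm6-deficient mouse of 12 weeks is too few to compare the ages.

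Genes of most similar pattern were taken as the 5 other genes with the smallest root mean square difference from a member over the 7 livers, after each gene was centred on its own mean. Their changes follow from this choice and were not tested. Nearest to Selenbp2 was Ces4a, a carboxylesterase gene, at 0.11 log2 units. It was at 8.24, 7.97, 8.31 and 8.16 in control livers 1 to 4 and at 6.43, 6.68 and 6.20 in Trpm6-deficient livers 1 to 3, so Trpm6-deficient 3 was again the lowest. Next were Egfr, the epidermal growth factor receptor gene (0.26), Nudt7, which encodes a peroxisomal hydrolase of coenzyme A (0.26), Nat8, an N-acetyltransferase gene (0.27), and F2r, the thrombin receptor gene (0.29). Nudt7 spread far more than Selenbp2 in the Trpm6-deficient livers, at 11.48, 11.94 and 10.78. Selenbp1 itself was 0.58 from Selenbp2 on this scale.

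Nearest to Selenbp1 was Dpp7, a lysosomal dipeptidyl peptidase gene, at 0.09 log2 units. It was at 9.64, 9.49, 9.27 and 9.44 in control livers 1 to 4 and at 9, 8.80 and 8.58 in Trpm6-deficient livers 1 to 3. Hao1, which encodes the peroxisomal glycolate oxidase of hepatocytes, was at 0.10, and Creb3l3, a liver transcription factor gene, at 0.10. Pvt1, a long non-coding RNA, and Mpp5, a cell polarity gene, were both at 0.11. Creb3l3 was at 10.79 or 10.80 in every control liver and at 10.41, 10.31 and 9.99 in Trpm6-deficient livers 1 to 3. In these 5 genes, as in Selenbp1, no Trpm6-deficient liver reached the lowest control.

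**Figure D4:**
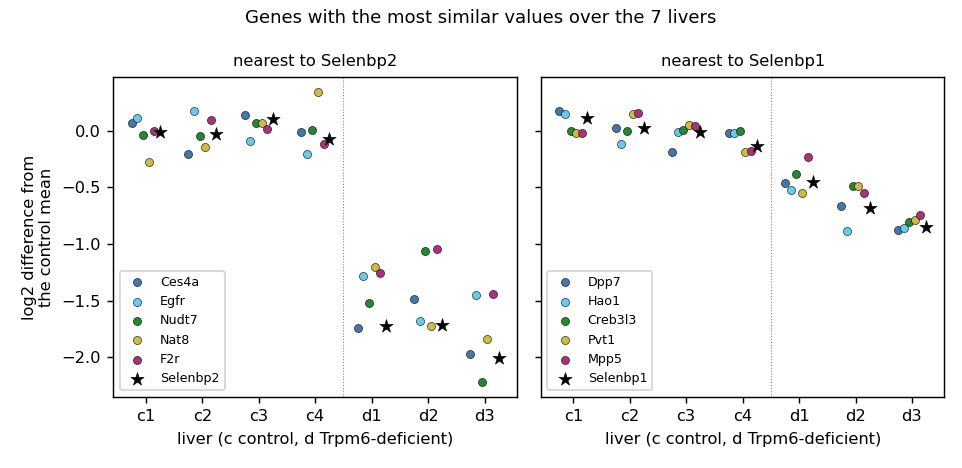
Log2 difference of each liver from the control mean, for Selenbp2 and Selenbp1 (stars) and the 5 genes nearest to each (dots), in control livers 1 to 4 (c1 to c4) and Trpm6-deficient livers 1 to 3 (d1 to d3). The genes nearest to Selenbp2 have changes from -1.73 to -1.25 and those nearest to Selenbp1 from -0.76 to -0.51.

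Of the neighbours of the pair on chromosome 3, only Tuft1 had a change near the size of that of Selenbp1, and it did not pass the test. RefSeq annotates 9 genes between Selenbp2 and Selenbp1, of which 3 code for proteins and have a probe set of their own. Cgn, a tight junction gene, stood at -0.15 on the log2 scale (SE 0.20, adjusted p = 0.922 from limma). Pogz, a chromatin gene, stood at 0.02 (SE 0.26, adjusted p = 0.998), and Psmb4, a proteasome subunit gene, 0.02 (SE 0.07, adjusted p = 0.971). Tuft1, a tuftelin gene next to Selenbp2 on its other side, had a change of -0.72 (SE 0.25, adjusted p = 0.654), with 8.14, 7.72, 7.76 and 8.52 in control livers 1 to 4 and 6.91, 7.59 and 7.44 in Trpm6-deficient livers 1 to 3. These groups did not overlap, but Trpm6-deficient 2 was close below control 2, and the change was -0.52 without Trpm6-deficient 1.

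Beyond Tuft1 lie Snx27, Celf3, Riiad1 and Mrpl9, and beyond Selenbp1 lie Rfx5, Pi4kb, Zfp687, Psmd4 and Pip5k1a, with log2 changes from -0.18 (Zfp687) to 0.08 (Celf3). Of the 13 neighbours limma called 0. Nominally 1 was lower, Tuft1 (7.69%, against 3.03% of all probe sets), and 0 higher. By a plain two-sample test with equal variances, without limma's moderation, 1 was nominally lower, Mrpl9. Their median change was -0.07, against 0.00 over all probe sets.

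Selenium metabolism was described through 34 genes, all measured by 35 probe sets: the 24 selenoproteins of the mouse, 7 genes that make selenocysteine or insert it, and 3 that supply selenium. Limma called 0 of them. By limma 1 was nominally higher, Scly (2.94% of the 34, against 3.85% of all probe sets), and 0 lower. The plain test gave other genes: 1 nominally higher, Dio2 (control mean 4.9), and 1 lower, Selenot. The median log2 change was -0.02. Selenop, the plasma carrier of selenium that the liver makes, was at 13.63, 13.59, 13.53 and 13.61 in control livers 1 to 4 and at 13.73, 13.73 and 13.61 in Trpm6-deficient livers 1 to 3, a change of 0.10 (SE 0.05, adjusted p = 0.812 from limma). Gpx1, the cytosolic glutathione peroxidase gene, had a change of -0.04 (SE 0.07, adjusted p = 0.942), and Txnrd1, the cytosolic thioredoxin reductase gene, -0.13 (SE 0.10, adjusted p = 0.862). The highest were Selenow, at 0.29 (SE 0.16, adjusted p = 0.819), and Scly, the lyase that frees selenium from selenocysteine, at 0.26 (SE 0.10, adjusted p = 0.688).

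Dio1, the selenoprotein that activates thyroid hormone in liver, had the lowest change of the list, at -1.66 (SE 0.74, adjusted p = 0.766 from limma). It was at 11.03, 11.02, 10.45 and 10.38 in control livers 1 to 4 and at 10.43, 9.58 and 7.17 in Trpm6-deficient livers 1 to 3. Trpm6-deficient 1 was above the lowest control, and Trpm6-deficient 3 was far below all other livers. The mean change rested on that liver: it was -0.715 without Trpm6-deficient 3 and -2.345 without Trpm6-deficient 1. Dio3, a deiodinase gene, was the next lowest, at -0.21 (SE 0.11, adjusted p = 0.820), with a control mean of 5.65, below the median of every array (6.43 to 6.48).

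Of 22 genes of sulfur amino acids and sulfide, 20 were measured. Limma called 0 of them. Nominally 7 (35%) were higher, where 3.85% of all probe sets were, and 0 lower (5 and 1 by the plain test). The groups did not overlap, with Trpm6-deficient livers higher, for 6 of the 20 genes (30%), against 2.94% of all probe sets. The median change over the 22 probe sets was 0.13. Trpm6-deficient livers lay wholly lower for 0 of the 20, against 2.38% of all probe sets. These shares are of unlike units, since a gene counted if any of its probe sets did. The list was also brighter, with a mean log2 value of 11.34 to 11.47 in control livers, against 6.76 to 6.79 over all probe sets. It was drawn up with earlier results of these data known, so the shares are a description.

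Ethe1, the mitochondrial dioxygenase of the sulfide pathway, was at 10.16, 10.02, 9.55 and 10.52 in control livers 1 to 4 and at 10.90, 11.07 and 11.44 in Trpm6-deficient livers 1 to 3. All Trpm6-deficient livers were above all controls, and Trpm6-deficient 3, lowest for Selenbp1 and Selenbp2, was the highest. The change was 1.07 (SE 0.24, adjusted p = 0.389 from limma). Cth, the cystathionine gamma-lyase gene of transsulfuration, was at 12.75, 12.48, 12.59 and 12.59 in control livers 1 to 4 and at 13.21, 13.24 and 13.10 in Trpm6-deficient livers 1 to 3. It changed by 0.58 (SE 0.08, adjusted p = 0.119), without overlap, and its adjusted p was 0.0809 when dim probe sets, with a mean under 5, were left out. Sqor, which starts sulfide oxidation, had a change of 0.30 (SE 0.10, adjusted p = 0.647), and Mpst, a sulfide-producing sulfurtransferase gene, 0.04 (SE 0.05, adjusted p = 0.920).

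The lowest changes of this list were in Csad, which encodes the decarboxylase of taurine synthesis, and Tpmt, a thiol methyltransferase gene. Csad was at 12.19, 11.60, 10.89 and 11.12 in control livers 1 to 4 and at 11.82, 10.73 and 9.29 in Trpm6-deficient livers 1 to 3, a change of -0.84 (SE 0.62, adjusted p = 0.856 from limma) within overlapping groups. Tpmt had a change of -0.33 (SE 0.14, adjusted p = 0.736). Without Trpm6-deficient 3 the change of Csad was -0.175, and that of Tpmt, at -0.39, was then the lower.

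The other products of methanethiol oxidation, hydrogen peroxide and formaldehyde, are removed by 11 listed genes, of which 9 were measured by 12 probe sets. Limma called 0 of them. By limma 1 was nominally higher (11.1% of the 9, against 3.85% of all probe sets) and 0 lower, and the plain test gave the same counts. The median change was 0.03. Cat, the catalase gene, had a change of -0.03 (SE 0.04, adjusted p = 0.907 from limma), Adh5, the formaldehyde dehydrogenase gene, 0.03 (SE 0.15, adjusted p = 0.984), and Aldh2, the mitochondrial aldehyde dehydrogenase gene, 0.09 (SE 0.07, adjusted p = 0.873). The highest were Aldh1l1, a folate enzyme gene, at 0.27 (SE 0.09, adjusted p = 0.641), and Prdx3, a mitochondrial peroxiredoxin gene, at 0.10 (SE 0.07, adjusted p = 0.852). The lowest were Prdx4, at -0.38 (SE 0.19, adjusted p = 0.793), and a probe set of Esd, a formaldehyde pathway hydrolase gene, at -0.16 (SE 0.12, adjusted p = 0.856).

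**Figure D5:**
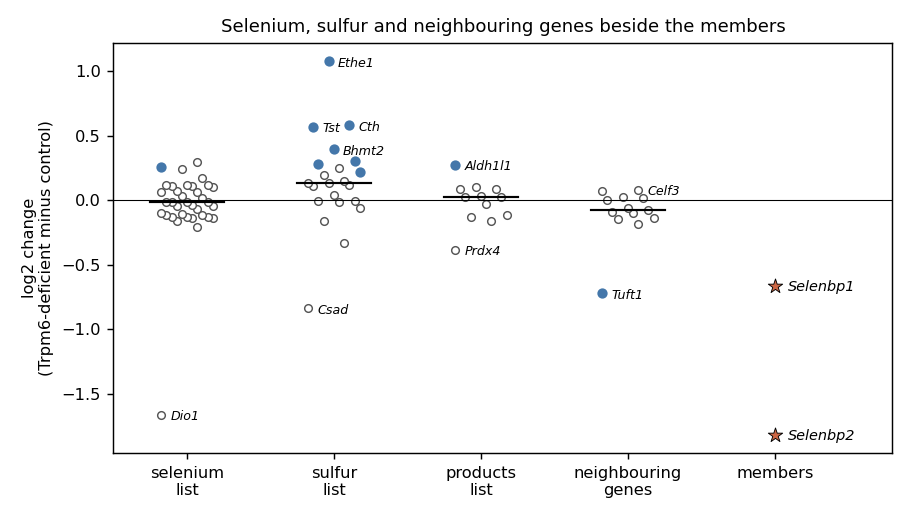
Log2 change (Trpm6-deficient minus control) of each probe set in the selenium, sulfur and products lists and of the neighbouring genes, beside the members (stars). Filled points differ nominally by limma, horizontal lines are medians, and Dio1 (-1.66) and Csad (-0.84) are the only points of the lists below Tuft1 (-0.72).

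The array medians lay between 6.43 and 6.48 in all 7 livers. Trpm6, the targeted gene, was at 5.50 to 5.53 in control and 5.37 to 5.50 in Trpm6-deficient livers, a difference of -0.05 (SE 0.05, adjusted p = 0.882 from limma), below the median of every array. The exons covered by its probe set were not looked up. Of 10 hepatocyte markers 9 were measured, and limma called 0. Among them 1 was nominally higher, Asgr1 (11.1% of the 9, against 3.85% of all probe sets). The mean log2 value of the 9 lay between 13.43 and 13.54 in control and 13.50 and 13.58 in Trpm6-deficient livers. Of 32 markers of other cell types 28 were measured, and limma called 0. Nominally 3 were higher (Krt19, Reln and Des) and 1 lower, 14.3% of the 28 against 6.87% of all probe sets. The mean of these markers lay between 8.06 and 8.54 in control and 8.19 and 8.32 in Trpm6-deficient livers. The cell types differed in median log2 change. It was -0.29 for Kupffer cells and macrophages, -0.215 for sinusoidal endothelium and -0.05 for lymphocytes. For stellate cells and fibroblasts it was 0.06, and for cholangiocytes 0.16. The nominally lower marker was Alas2 of erythroid cells, at -1.66 on the log2 scale (SE 0.26, adjusted p = 0.192 from limma). Of the other 3 erythroid markers only Slc4a1 was measured, at -0.01 (SE 0.04, adjusted p = 0.992). Values on a log2 scale have no zero, so absence of a marker cannot be read from them. The part of these markers in the lower levels of Selenbp1 and Selenbp2 was not tested.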

How the data were processed

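Liver RNA of 4 control and 3 Trpm6-deficient mice was hybridised to GeneChip Mouse Gene 1.0 ST arrays, 1 per mouse. The authors carried out background correction, normalization and probe summarization in Affymetrix Expression Console 1.4.0, by RMA as the submitters' processing notes state, and deposited log2 values with 2 decimals for 35556 probe sets. The files hold no scanner intensities or background calls used here, and precision is limited by the number of arrays. Groups came from the sample labels.

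Values were fitted as deposited with limma 3.58.1 in R 4.3.3 (lmFit and eBayes, no covariate) and adjusted by Benjamini and Hochberg over all probe sets. Standard errors are those of limma. The scripts were tested on simulated data. Gene symbols came from the platform annotation: 21789 probe sets have 1 symbol, 1621 several and 12146 none. Start regions and neighbours came from RefSeq (GRCm38.p6), and both member genes matched. The start regions were aligned end to end with Biopython 1.88, end gaps free.

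The members, lists and tests were chosen with earlier results of these data known. Named in each list were called genes, the 2 highest, the 2 lowest and a few core genes. Also named were the 5 nearest profiles of each member and 5 neighbours per side. A gene counted as called if any of its probe sets was. Alternatives were leaving out each liver, age as a covariate, a replicate block, quantile normalization, median centring, a filter at a mean log2 value of 5, an intensity trend, a threshold of 0.05, and a plain two-sample test with equal variances in place of limma. The methods name a t-test for an unadjusted threshold without saying whether it was limma's moderated one. The count of transcripts they give is nearly the 2444 of limma here and far from the 1863 of the plain test.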

Additional observations from a re-analysis of the deposited data

Results flagged for a closer look

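In 4 of 46 probe sets looked at, 1 control liver stood apart from the other 3, by a gap to its nearest neighbour that took up more of the range than Dixon's critical value for 4 samples allows; chance gives this in about 1 group in 20. Selenbp1 and Selenbp2 were not among them. For Creb3l3 the gap was the whole range (ratio 1), but control 3 at 10.80 and the others at 10.79 differ by the last deposited decimal. For Gpx1 the ratio was also 1, with control 1 at 13.35 and the others at 13.30. Control 1 was also the highest for Psmd4, at 9.84 with the others at 9.44 to 9.50 (ratio 0.85), and for Pip5k1a, at 8.09 with the others at 8.02 to 8.03 (ratio 0.857).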

How the results depend on the processing

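The Selenbp2 change lay between -1.87 and -1.72 and the Selenbp1 change between -0.77 and -0.57 when each liver was left out in turn, and both moved by less than the spread between livers under every alternative run. The labels do not say whether replicate numbers pair the livers. Deviations of same-numbered livers correlated at 0.335, 0.260 and 0.088 over probe sets. Trpm6-deficient 1 and 2 were closest to the controls of their own number but Trpm6-deficient 3 to control 4. With so few livers these values cannot settle whether the numbers are pairs. With a replicate block the changes were -1.84 and -0.71, and 1 probe set was called in all. The 46 probe sets called became 7 to 69 when each liver was left out (controls 1 to 4: 9, 10, 7 and 9; Trpm6-deficient 1 to 3: 69, 17 and 14). They became 8 with age as a covariate, 70 when dim probe sets, with a mean under 5, were left out, and 14 at a threshold of 0.05. A plain equal-variance test called 1863 at an unadjusted p of 0.05, where limma gave 2444, and 8 at an adjusted p of 0.1. The counts called in the selenium and products lists and among neighbours stayed at 0 throughout, and that of the sulfur list was 0 except without dim probe sets, where Cth passed (1 gene). Without Trpm6-deficient 3 the changes of Dio1 (-0.715), Csad (-0.175), Prdx4 (-0.198) and the named Esd probe set (-0.028) were closer to 0. Small changes turned sign when livers were left out: Gpx1 (-0.12 to 0.033), Adh5 (-0.10 to 0.18), Riiad1 (-0.10 to 0.08), Cgn (-0.29 to 0.053), Pogz (-0.18 to 0.29), Psmb4 (-0.013 to 0.063), Rfx5 (-0.10 to 0.16) and Psmd4 (-0.26 to 0.028). So did Adh5 with age as a covariate (-0.007), Riiad1 with the replicate block (-0.09), quantile normalization (-0.016) and median centring (-0.0083), and Psmb4 with quantile normalization (-0.0020). The causes were not tested. Scanner files were not used here, so other background corrections were not run.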
